A study of Mus musculus with 6 samples.

Results

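Transcripts of 9 surface proteins that are commonly used to sort mouse blood stem cells from their first descendants (Kit, Ly6a, Cd34, Slamf1, Cd48, Flt3, Thy1, Procr and Tek) were followed in blood stem cells (hematopoietic stem cells, HSCs) and in the multipotent progenitors that descend from them (MPPs). The genes were taken as a named list, with every probe that the array design files under those symbols, which gave 13 of the 55681 probes that are not controls. Flt3 had 3 probes, Cd34 and Cd48 had 2 each, and the other genes had 1 each. The samples were MPPs from Bmi1 KO mice, MPPs from WT mice, HSCs from Bmi1 KO mice and HSCs from WT mice, with 3 samples in each group. All mice were of the C57BL6 background and 2 to 3 months old, and the cells were isolated by FACS. Each of the 6 two-colour Agilent arrays carried a KO sample in red (Cy5) and a WT sample of the same population in green (Cy3). The antibodies and gates of the sort are not given in the sources used here, nor is the part of Bmi1 that was removed, and the labels call the replicates biological without saying how many mice went into each. The p-values measure the spread between these samples.

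HSCs sustain blood formation for life, whereas MPPs have lost long-lasting self-renewal but still form many blood lineages. In mouse bone marrow both populations lie among cells that lack mature lineage antigens and carry the stem cell factor receptor Kit and the GPI-anchored protein Sca-1, the product of Ly6a. HSCs are enriched among cells with the SLAM receptor CD150 (Slamf1), the protein C receptor EPCR (Procr) and the angiopoietin receptor Tie2 (Tek), with low Thy-1 (Thy1), and without CD48 (Cd48), the cytokine receptor Flt3 (Flt3) or, in adult mice, much of the sialomucin CD34 (Cd34). Bmi1 encodes a Polycomb protein that HSCs need for self-renewal. The transcripts of these markers therefore bear on whether the sorted populations carry the profiles that their labels name, and on whether those profiles are alike in the KO and WT samples.

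The probes are 60 bases long, and the first 30 bases of those on which the results turn are given as printed in the array files, 5′ to 3′, so that the several probes of a gene can be told apart. The whole run is in lower case because no part of it is singled out. Positions are those in the array files, on assembly mm9. Exons and UTRs were not assigned. The Flt3 probes are shown because 1 of the 3 did not follow the others, the Cd48 and Slamf1 probes because they lie close together and went in opposite directions, and the Cd34 probes because they differed in size of effect.
Flt3 probe 1: cgtggatcttctctcaagcctcatttcctt
Flt3 probe 2: agatgctgtctgccattactccaaagtgac
Flt3 probe 3: tttctggggccacacagcgagaccctgtct
Cd48 probe 1: gtcagcaatcctgtaagcagcaagaacgac
Cd48 probe 2: cctgtgtgcccagtcctttacaaagatttc
Slamf1: ttttagagcctcttatgcttcaaacaacag
Cd34 probe 1: taaacaagatatcgggagccaccagagcta
Cd34 probe 2: ccagagatgagaggattgggtgtattctct
The Flt3 probes lie on the minus strand of chromosome 5, probe 1 at chr5:148178496-148178555 and probe 2 at chr5:148142576-148142635. Probe 3, which the files also give under a RIKEN clone, lies between them at chr5:148174133-148174192. Its start in a transcript is given as 3701, past the 3338 of probe 2, though on the minus strand probe 3 comes before probe 2. Whether probes 2 and 3 read the same transcript was not tested. On the plus strand of chromosome 1, Cd48 probe 1 is at chr1:173629721-173629780, Cd48 probe 2 at chr1:173635201-173635260 and Slamf1 at chr1:173730343-173730402. The Cd34 probes, also on the plus strand, are at chr1:196785280-196785339 and chr1:196787392-196787451.

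A level here is the log2 of a spot's background-corrected intensity after the 6 arrays were made alike within each dye. Levels were compared between populations probe by probe within a dye. They were not set against those of another probe, except to name the brightest probe of a gene or list. Levels were also summed over the genes of a list. The KO channel was not set against the WT channel by level, because the dyes differ. Genotype was read from the log2 ratio of KO over WT on each array. All 13 probes passed the filter on dim probes, which left 44641 probes for the tests. All but Slamf1 were well above background in every channel of every array, as were 72.5% to 82.2% of spots in green and 78.8% to 83.9% in red over all probes. No marker spot was marked as outlying or non-uniform. By position on the slide, row 1 held the 3 HSC arrays with MPP 1, and row 2 held MPP 2 and MPP 3. Neither probe of Bmi1, the targeted gene, passed the test between the channels in either population. The log2 KO/WT ratio of its brighter probe was 0.23, -0.69 and 0.48 on MPP arrays 1, 2 and 3. On HSC arrays 1, 2 and 3 it was -0.39, -2.42 and -0.50, with a mean of -1.11 (unadjusted p = 0.0538, adjusted p = 0.676 by limma). The ratio of the dimmer probe was 0.93, 0.70 and -0.05 in MPPs and 0.11, -1.66 and 1.36 in HSCs. The labels do not say whether these probes lie in the removed part, so they check nothing if they do not, and KO below means the channel labelled Bmi1 KO. In bulk samples such as these, fewer cells of a type and less RNA per cell cannot be told apart.

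Flt3, the receptor for Flt3 ligand and a marker used in common sorting schemes, was the only member gene whose probes passed the test between populations. It rose in MPPs in both genotypes. Its probe 1 had levels of 14.99, 14.94 and 14.56 in KO MPPs, against 11.70, 12.32 and 11.69 in KO HSCs. In WT cells it had 13.49, 13.71 and 13.45 in MPPs, against 10.12, 10.47 and 10.92 in HSCs. The groups did not overlap, and the lowest MPP sample stood more than 2 log2 units above the highest HSC sample of its genotype. The MPP minus HSC difference of probe 1 was 2.93 ± 0.29 (SE) in KO cells, or 7.63-fold, with an adjusted p of 0.0220 by limma. In WT cells it was 3.05 ± 0.29, or 8.26-fold, with an adjusted p of 0.0283.

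The second Flt3 probe went the same way. In KO cells it had levels of 14.44, 14.09 and 14.08 in MPPs, against 9.65, 10.98 and 11.36 in HSCs, and in WT cells 12.42, 13.24 and 12.84 in MPPs, against 8.62, 7.96 and 8.82 in HSCs. The HSC samples were again all below the MPP samples, and KO HSC 1 was the lowest of its channel. The difference was 3.54 ± 0.47 (11.6-fold) in KO cells with an adjusted p of 0.0499, just under the threshold of 0.05, and 4.37 ± 0.35 (20.7-fold) in WT cells with an adjusted p of 0.0201. Probe 3 of Flt3 did not pass. It had levels of 11.33, 11.12 and 11.02 in KO MPPs, against 11.10, 10.57 and 10.44 in KO HSCs, and of 10.39, 9.56 and 9.17 in WT MPPs, against 8.93, 9.60 and 9.15 in WT HSCs. The samples of the 2 populations overlapped in each channel, and the difference was 0.45 (95% interval -0.22 to 1.12, adjusted p = 0.575) in KO cells and 0.48 (-0.46 to 1.43, adjusted p = 0.598) in WT cells, where it was 0.14 without MPP 1 and 0.75 without MPP 3.

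With Flt3 as the only gene called, 2 of the 13 marker probes passed in the KO channel, where 0.352% of all probes did (0.293% with MPPs higher), and 2 of 13 in the WT channel, where 0.287% did (0.231% with MPPs higher). The calls rested on all 6 arrays. Leaving out 1 array at a time kept the size of the differences, at 2.83 to 3.14 in KO and 2.86 to 3.25 in WT cells for probe 1. Its KO call was lost without HSC 1 (adjusted p = 0.0717), HSC 3 (0.0563), MPP 1 (0.115), MPP 2 (0.114) or MPP 3 (0.0961), and held without HSC 2 (0.0385), while its WT call was lost without any one of them (0.0614 to 0.141). For probe 2 the KO call held only without HSC 1 (0.0467) and the WT call only without MPP 2 (0.0439). Within row 1 of the slide, where MPP 1 is the lone MPP array, the difference of probe 1 was 3.09 in KO and 2.99 in WT cells and that of probe 2 was 3.78 and 3.95, with no call at adjusted p of 0.306 to 0.561.

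**Figure D1:**
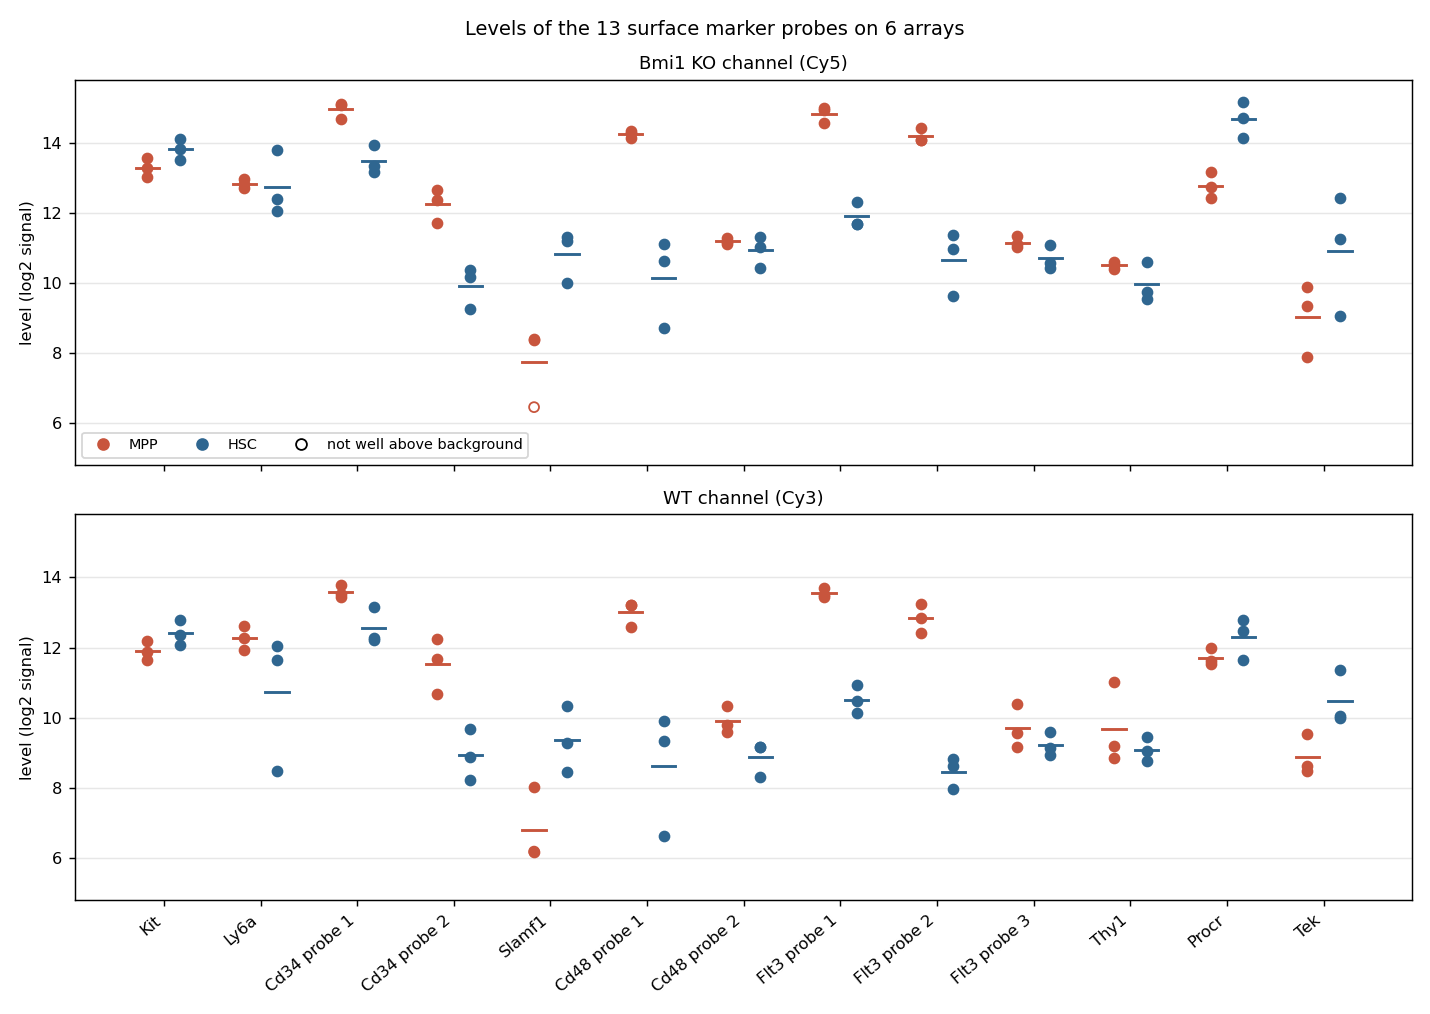
Levels (log2 signal) of the 13 marker probes, with the KO channel above and the WT channel below. Each point is 1 sample (3 per group), MPPs left of HSCs, with a line at the group mean; an open point was not well above background. The points of Flt3 probes 1 and 2, Cd48 probe 1 and both Cd34 probes are higher in MPPs without overlap in both panels, and those of Slamf1 lower.

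Cd48 and Slamf1, nearby genes of the SLAM receptor family whose products are used in sorting HSCs, went in opposite directions. Cd48 probe 1, for the ligand of CD2 and CD244, had levels of 14.27, 14.13 and 14.35 in KO MPPs, against 8.71, 11.11 and 10.63 in KO HSCs. In WT cells it had 13.21, 13.21 and 12.59 in MPPs, against 9.35, 6.62 and 9.90 in HSCs. MPP samples lay close together and HSC samples far apart, with an SD of 0.11 in KO MPPs against 1.27 in KO HSCs, and of 0.36 in WT MPPs against 1.76 in WT HSCs. The difference was 4.10 ± 0.61 (SE) in KO cells with an adjusted p of 0.0715, and 4.38 ± 0.86 in WT cells with an adjusted p of 0.153. These differences were as large as those of Flt3 but did not pass the threshold. Without HSC 1 the KO difference was 3.38 and passed, with an adjusted p of 0.0355, and it did not pass with any other array left out. Without HSC 2 the WT difference was 3.38 and did not pass (adjusted p = 0.0750). The WT signal of HSC 2 was 2.45 times its background, so the WT difference on all arrays includes a level near background. Cd48 probe 2 differed by 0.26 (95% interval -0.46 to 0.98) in KO cells, and by 0.01 there without HSC 3. Its difference in WT cells was 1.02 (0.17 to 1.88, adjusted p = 0.309). Its WT groups did not overlap, with levels of 9.60 to 10.33 in MPPs against 8.32 to 9.17 in HSCs.

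Slamf1, a self-ligand receptor, had levels of 8.38, 8.41 and 6.46 in KO MPPs, against 10.00, 11.32 and 11.21 in KO HSCs. In WT cells it had 6.18, 6.18 and 8.02 in MPPs, against 8.45, 9.28 and 10.33 in HSCs. All HSC samples lay above all MPP samples of their genotype, and the probe was well above background in 2 of 3 samples in each MPP group (not in KO MPP 3 or WT MPP 2) and in all HSC samples. It passed the filter on dim probes through the HSC groups alone, and its differences are against values that include levels near background in MPPs. The difference was -3.09 ± 0.64 in KO cells (adjusted p = 0.157) and -2.56 ± 0.69 in WT cells (adjusted p = 0.252). The Slamf1 probe lies 100563 bases from Cd48 probe 1 and 95083 bases from Cd48 probe 2. Of the 7 other SLAM family genes measured, which all lie on chromosome 1, none passed in either channel, and 4 were positive in KO and 3 in WT cells. Ly9 had the smallest p of them in WT cells, with differences of 1.41 in KO cells (adjusted p = 0.370) and 2.26 in WT cells (adjusted p = 0.306). The median of the 7 was 0.21 in KO and -0.03 in WT cells, beside -0.07 over all probes in each channel. Well above background on all 3 arrays were 7 of them in KO MPPs, 5 in KO HSCs and 4 in each WT group. The signs and medians of the 7 therefore include levels near background.

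CD34, an adhesion sialomucin that adult mouse HSCs carry at low level, had more transcript signal in MPPs by both probes. Cd34 probe 1 had levels of 15.11, 15.08 and 14.67 in KO MPPs, against 13.16, 13.33 and 13.94 in KO HSCs, and of 13.52, 13.46 and 13.80 in WT MPPs, against 12.29, 13.17 and 12.22 in WT HSCs. Probe 2 had 12.65, 12.38 and 11.71 in KO MPPs, against 10.37, 9.26 and 10.17 in KO HSCs, and 10.68, 12.24 and 11.68 in WT MPPs, against 9.68, 8.88 and 8.21 in WT HSCs. No HSC sample reached the lowest MPP sample of its channel on either probe. The differences were 1.47 ± 0.31 in KO and 1.03 ± 0.33 in WT cells for probe 1, and 2.32 ± 0.41 in KO and 2.61 ± 0.54 in WT cells for probe 2. Their adjusted p-values of 0.159, 0.291, 0.110 and 0.171 did not pass.

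Procr and Tek, receptors that mark HSCs, had lower mean levels in MPPs. Procr, for the endothelial protein C receptor, had levels of 12.74, 12.42 and 13.16 in KO MPPs, against 14.13, 15.17 and 14.71 in KO HSCs. In WT cells it had 11.52, 11.98 and 11.63 in MPPs, against 12.80, 11.65 and 12.46 in HSCs. The KO groups were apart, while WT HSC 2 lay among the WT MPP samples. The difference was -1.90 ± 0.36 in KO cells (adjusted p = 0.135) and -0.59 ± 0.36 in WT cells (adjusted p = 0.496). That the KO difference exceeded the WT difference was tested on the ratios: the KO/WT ratio in MPPs minus that in HSCs was -1.17 (95% interval -2.72 to 0.38), with an adjusted p of 0.968. Without HSC 2 it was -0.60. The WT difference of the levels was -0.34 without HSC 1 and -0.92 without HSC 2.

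Tek, for the receptor of angiopoietin-1, had levels of 9.88, 9.35 and 7.88 in KO MPPs, against 11.25, 9.05 and 12.41 in KO HSCs. In WT cells it had 8.62, 9.54 and 8.48 in MPPs, against 10.00, 10.06 and 11.37 in HSCs. KO HSC 2 fell among the KO MPP samples, whereas the WT groups did not overlap. The difference was -1.87 ± 0.92 in KO cells (adjusted p = 0.493) and -1.59 ± 0.49 in WT cells (adjusted p = 0.285). The KO value was -1.11 without HSC 3 and -2.79 without HSC 2.

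Kit and Ly6a, which mark both populations in the usual sorting schemes, and Thy1 had smaller or less even differences. Kit had levels of 13.01 to 13.58 in KO MPPs, against 13.52 to 14.12 in KO HSCs, and of 11.64 to 12.20 in WT MPPs, against 12.07 to 12.80 in WT HSCs. The ranges overlapped, and the difference was -0.54 (95% interval -1.23 to 0.16) in KO cells and -0.51 (-1.23 to 0.21) in WT cells, where it was 0.00 with each array centred on its median. Kit was printed as 2 spots on each array, which differed by 0.03 to 0.20 on the log2 scale. Ly6a had levels of 12.70, 12.96 and 12.82 in KO MPPs, against 12.07, 12.39 and 13.80 in KO HSCs, and of 11.93, 12.29 and 12.63 in WT MPPs, against 12.05, 8.47 and 11.65 in WT HSCs. WT HSC 2 stood far below the other samples. The Ly6a difference was 0.08 (-1.05 to 1.21) in KO cells and 1.56 (-0.74 to 3.85) in WT cells, and the WT value was 0.43 without HSC 2. In 4 of 16 alternative settings the KO difference of Ly6a was below 0. Thy1 had levels of 10.40 to 10.60 in KO MPPs, against 9.56 to 10.59 in KO HSCs, and of 8.86 to 11.01 in WT MPPs, against 8.77 to 9.45 in WT HSCs. Its samples overlapped, with a difference of 0.54 (-0.26 to 1.34) in KO cells and 0.60 (-0.85 to 2.04) in WT cells, and -0.06 in WT cells without MPP 3.

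Over the 13 probes, 9 differences were above 0 in each channel, with a median of 0.45 in KO and 1.02 in WT cells. Probes of 1 gene are not separate markers, and the genes with several probes, Flt3, Cd34 and Cd48, were higher in MPPs. With 1 probe per gene, 5 of 9 were above 0 in each channel, with a median of 0.08 in KO and 0.60 in WT cells. The unadjusted p was under 0.05 for 7 of 13 probes in KO cells, where 11.6% of all probes met it, and for 8 of 13 in WT cells, where 14.1% did. The 2 populations did not overlap for 7 of 13 probes in KO cells and for 8 of 13 in WT cells, beside 18.9% and 20.9% of all probes. In both channels and in the same direction they did not overlap for 6 of 13 probes, which belong to 4 genes, beside 5.64% of all probes. For 5 of them, both Cd34 probes, Cd48 probe 1 and Flt3 probes 1 and 2, MPPs were higher (2.67% of all probes). The remaining probe was Slamf1, with MPPs lower (2.97%). Since it passed the filter only through HSCs, where it is high, Slamf1 adds no support to these counts. The SD of the 3 HSC samples exceeded that of the 3 MPP samples for 12 of 13 probes in KO cells and for 9 of 13 in WT cells, beside 71.5% and 58.2% of all probes.

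**Figure D2:**
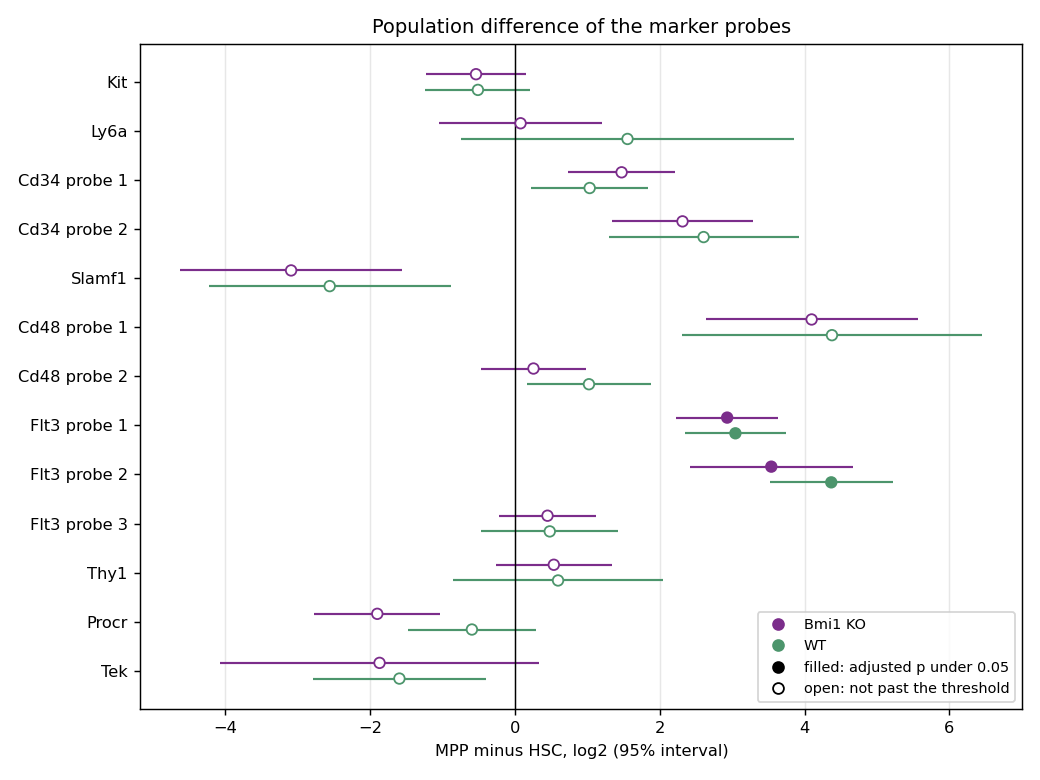
MPP minus HSC difference of each marker probe on the log2 scale (points) with its 95% interval (lines), in the KO channel (upper of each pair) and the WT channel (lower). Filled points passed an adjusted p of 0.05, which Flt3 probes 1 and 2 did in each channel; Cd48 probe 1 had differences of 4.10 and 4.38 with wider intervals.

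**Figure D3:**
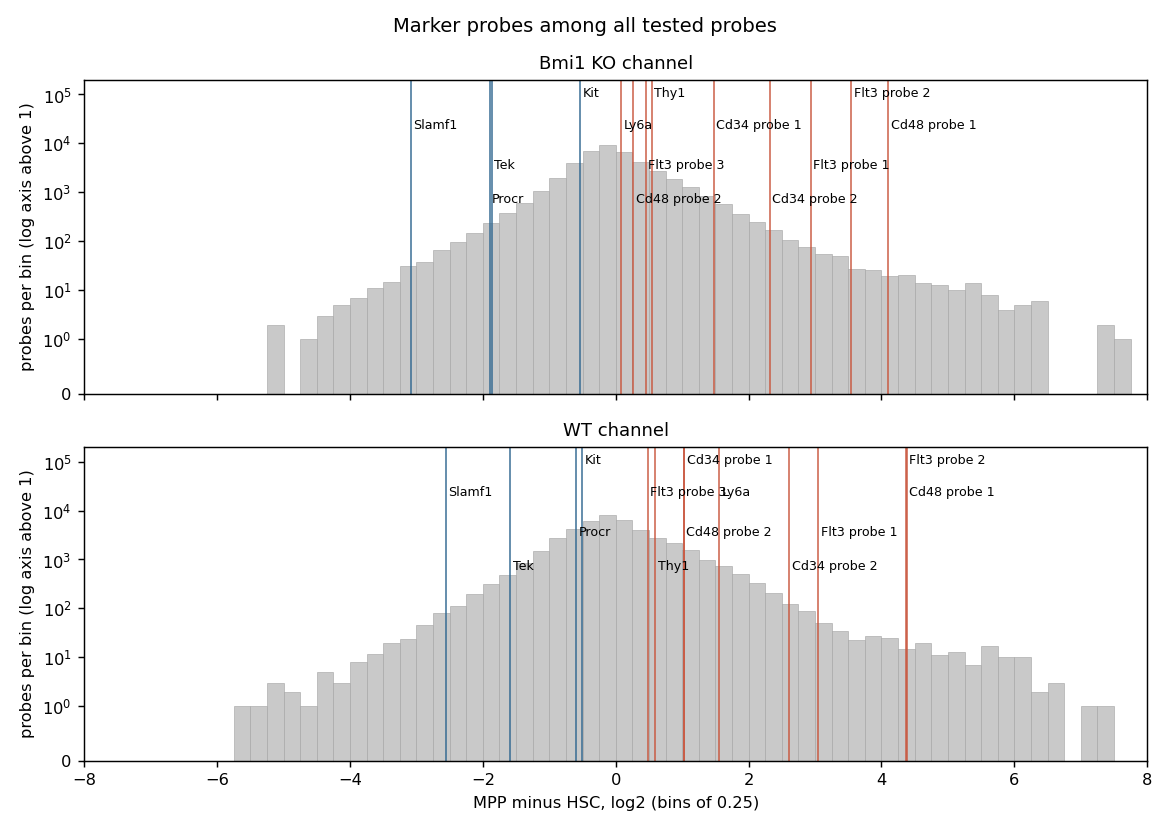
MPP minus HSC differences of all 44641 tested probes in bins of 0.25 (x axis, log2; y axis, probes per bin, on a log axis above 1), with the KO channel above and the WT channel below. Vertical lines mark the 13 marker probes; Slamf1 is farthest to the left in each panel, and Flt3 probe 2 and Cd48 probe 1 are farthest to the right.

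Other surface genes were read from lists of genes known from each population. The lists were chosen with earlier results of these data known, so their counts are given as a description. Of the 14 MPP surface genes, which include receptors and adhesion molecules of early lymphoid and myeloid progenitors, 11 were positive in each channel, with medians of 1.22 in KO and 1.53 in WT cells. In KO cells, where 0.352% of all probes passed, 1 of 14 did. It was the integrin chain gene Itgal, with a difference of 2.92 (adjusted p = 0.0275), and was named after its value was seen. In WT cells, where 0.287% of all probes passed, 2 of these 14 did. Among them was the tetraspanin gene Cd53, with differences of 3.05 in KO cells (adjusted p = 0.0865) and 3.93 in WT cells (adjusted p = 0.0457). Of the next genes by p in WT cells, Cd27 and the tetraspanin gene Cd37, neither passed; Cd37 had differences of 1.44 in KO and 1.55 in WT cells.

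Of 19 HSC surface genes measured, 3 were positive in each channel and none passed, with medians of -0.71 in KO and -0.81 in WT cells. The unadjusted p was under 0.05 for 8 of the 19 in KO and 9 in WT cells, all lower in MPPs. Over all probes, in either direction, 11.6% met it in KO and 14.1% in WT cells. Art4 had levels of 9.59 to 10.65 in KO MPPs, against 11.22 to 13.34 in KO HSCs, and of 9.06 to 10.19 in WT MPPs, against 11.40 to 12.51 in WT HSCs. Its groups were apart, with differences of -2.10 in KO cells (adjusted p = 0.268) and -2.54 in WT cells (adjusted p = 0.119). Esam, for an endothelial adhesion molecule, differed by -1.63 and -2.22, and the sialomucin gene Emcn by -0.21 and -1.24, in KO and WT cells in that order.

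**Figure D4:**
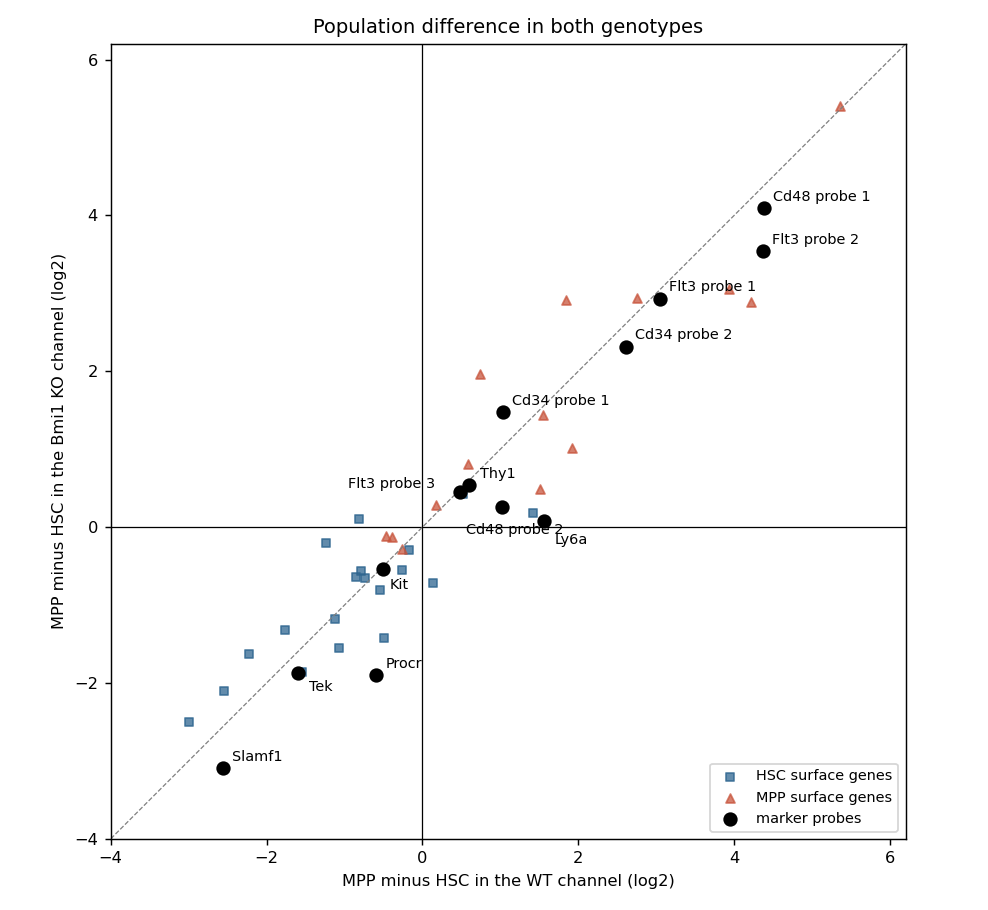
MPP minus HSC difference in the WT channel (x axis, log2) against that in the KO channel (y axis, log2) for the 13 marker probes (black, named), 19 HSC surface genes (blue squares) and 14 MPP surface genes (red triangles). The dashed line marks equal differences; Slamf1, Tek, Procr and Kit lie below 0 on both axes, as do most HSC surface genes, and Flt3, Cd48 and Cd34 probes lie above 0 with most MPP surface genes.

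Among ligands and partners of the markers, 11 genes were measured, of which 0 passed in KO and 1 in WT cells, beside 0.352% and 0.287% of all probes. Flt3l, for Flt3 ligand, had a difference of -1.27 in KO cells (adjusted p = 0.455) and -2.81 in WT cells (adjusted p = 0.253), and Kitl, for the ligand of Kit, had -0.11 and -0.62. The E-selectin gene Sele was not well above background in any HSC sample, and no difference is given for it. None of 8 Ly6 family genes and none of 4 relatives of Tek, Kit and Cd34 passed. Tie1, the closest relative of Tek, had -1.86 in KO cells (adjusted p = 0.0876) and -1.55 in WT cells (adjusted p = 0.256), and Podxl, a sialomucin gene related to Cd34, had -2.49 in KO cells (adjusted p = 0.0695) and -0.85 in WT cells. Podxl was well above background in 1 of 3 KO MPP and 1 of 3 WT MPP samples, against 3 of 3 KO HSC and 2 of 3 WT HSC samples, so its differences are against values near background. Ly6c1 had 2.61 in KO and 3.78 in WT cells and did not pass.

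Markers of mature or committed cells moved with some of these results. The 8 B cell genes had a median difference of 4.45 in KO and 0.43 in WT cells, 7 of 8 being positive in KO and 6 of 8 in WT cells. Their summed level was 15.51 to 17.49 in KO MPPs against 14.91 to 15.71 in KO HSCs, and 13.15 to 13.89 in WT MPPs against 13.90 to 14.25 in WT HSCs. The brightest of them, Cd22, had levels of 12.37 to 13.60 in WT MPPs against 13.72 to 14.08 in WT HSCs. Without Cd22, a choice made after seeing the data, the summed level was 14.58 to 17.26 in KO MPPs against 11.72 to 13.92 in KO HSCs, and 11.43 to 12.18 in WT MPPs against 10.66 to 11.80 in WT HSCs. Pax5, the B lineage transcription factor, passed in KO cells, with a difference of 4.42 (adjusted p = 0.0368), and was named after its value was seen; Ebf1 had 5.52 in KO cells (adjusted p = 0.0662) and 0.84 in WT cells, and Cd79a had 6.37 and 2.26. Ebf1 was well above background in 1 of 3 WT HSC samples and Cd79a in 2 of 3 KO HSC samples.

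The 10 granulocyte and monocyte genes had a summed level of 16.52 to 17.29 in KO MPPs against 13.78 to 16.52 in KO HSCs, and of 15.15 to 16.10 in WT MPPs against 12.16 to 15.23 in WT HSCs. None of them passed. Mpo, for myeloperoxidase, had differences of 3.73 in KO cells (adjusted p = 0.332) and 4.61 in WT cells (adjusted p = 0.282). Without Mpo, the brightest of these genes, the summed level was 15.25 to 16.01 in KO MPPs against 13.69 to 15.86 in KO HSCs. In WT cells it was then 14.01 to 15.25 in MPPs against 12.12 to 14.87 in HSCs, so the groups overlapped in both channels. The part of B cell and myeloid transcripts in the Flt3, Cd48 and Cd34 differences was not tested. Of the 6 megakaryocyte genes, 1 was positive in KO and none in WT cells, and their summed level was 12.82 to 13.41 in KO MPPs against 14.78 to 15.21 in KO HSCs, and 11.56 to 12.48 in WT MPPs against 12.82 to 13.22 in WT HSCs. Vwf, for von Willebrand factor, which also stands among the 8 endothelial genes, fell in KO MPPs by 3.33 (adjusted p = 0.0220) and differed by -1.48 in WT cells (adjusted p = 0.240). The endothelial genes had a summed level of 14.56 to 14.87 in KO MPPs against 15.02 to 15.46 in KO HSCs, and of 13.53 to 14.10 in WT MPPs against 13.08 to 14.35 in WT HSCs. Without Pecam1, the brightest of them, it was 13.08 to 13.84 in KO MPPs against 14.77 to 14.86 in KO HSCs. In WT cells it was then 12.05 to 12.23 in MPPs against 12.97 to 13.96 in HSCs. Leaving out Pecam1 was also a choice made after seeing the data. No list gene of these groups was below background throughout a group. The part of megakaryocyte or endothelial transcripts in the Slamf1, Procr and Tek values was not tested. None of the 8 erythroid, 9 T and NK cell, 7 mast cell and basophil or 8 lineage antigen genes measured passed in either channel.

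The KO/WT ratios asked whether the markers differed between the KO and WT channels within a population, with genotype tied to dye on all 6 arrays. No marker probe passed in MPPs (adjusted p of 0.992 or more) or in HSCs (0.685 or more), no unadjusted p was under 0.05, and none of the 44641 probes passed in either population (0% each). Over all probes the unadjusted p was under 0.05 for 2148 (4.81%) in MPPs and 3278 (7.34%) in HSCs. In MPPs 12 of the 13 probes had a mean ratio below 0, with a median of -0.42. In HSCs 5 of 13 did, with a median of 0.11. The medians over all probes were near 0 in both. When ratios were centred on each array's median in place of loess, the median of all probes was 0.21 in MPPs and 0.25 in HSCs, that of the markers 0.13 in MPPs and 0.53 in HSCs, and 6 of 13 in MPPs were below 0. Single arrays moved these values: without MPP 3, 9 of 13 were below 0 in MPPs with a median of -0.20, without MPP 1 the median was -0.63, and without HSC 2, 8 of 13 were below 0 in HSCs with a median of -0.16. The HSC median was -0.01 without HSC 1 and 0.36 without HSC 3. By array, the median ratio of the marker probes was -0.13, -0.58 and -0.74 on MPP arrays 1, 2 and 3, and -0.08, 0.53 and 0.00 on HSC arrays 1, 2 and 3.

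Tek was the only marker probe with a ratio below 0 on all 6 arrays, which 3.21% of all probes shared. KO was red and WT green on each array, so a dye effect of the probe cannot be told apart from genotype in this sign. Tek had ratios of -0.10, -1.78 and -2.03 in MPPs, and -0.08, -2.36 and -0.33 in HSCs. The sizes ran from near 0 to more than 2 log2 units within each population. Its mean was -1.30 (95% interval -2.67 to 0.07) in MPPs and -0.92 (-2.29 to 0.45) in HSCs, and with median centring -0.94 in MPPs and -0.54 in HSCs. Without HSC 2 the HSC value was -0.20.

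**Figure D5:**
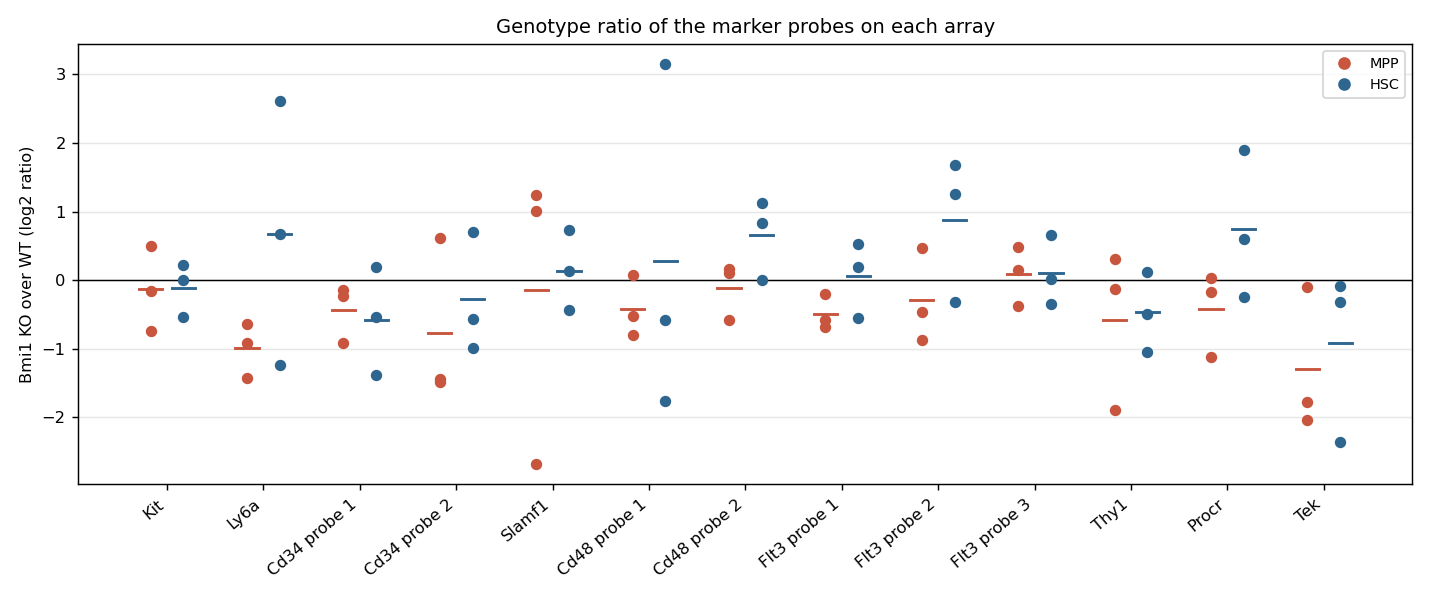
Log2 ratio of Bmi1 KO over WT of the 13 marker probes on each array (points), MPP arrays left of HSC arrays, with a line at the mean of 3 arrays. The Tek points are all below 0, and Ly6a, Cd48 probe 1 and Procr each have 1 high HSC point, all from HSC 2.

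Array HSC 2 held the extreme HSC ratio of several markers. The ratio of Ly6a was -0.63, -0.92 and -1.42 in MPPs, and -1.24, 2.60 and 0.67 in HSCs. That of Cd48 probe 1 was -0.53, -0.80 and 0.08 in MPPs, and -1.75, 3.15 and -0.58 in HSCs. In both genes the ratio of HSC 2 was high where its WT level was the lowest of the WT samples. For Cd48 probe 1 that WT signal was 2.45 times its background. Procr had ratios of -0.17, -1.13 and 0.04 in MPPs, and -0.24, 1.90 and 0.60 in HSCs, and Slamf1 had 1.25, 1.01 and -2.68 in MPPs, and 0.13, 0.73 and -0.44 in HSCs. Flt3 probe 1 had ratios of -0.20, -0.58 and -0.69 in MPPs, and 0.19, 0.53 and -0.55 in HSCs. Those of Flt3 probe 2 spread more, at 0.47, -0.88 and -0.47 in MPPs, and -0.32, 1.67 and 1.26 in HSCs.

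Whether the population difference depended on genotype was tested as the MPP minus HSC difference of the ratios. No marker passed (adjusted p of 0.968 or more) and none of all probes did (0%), with 1853 probes (4.15%) at an unadjusted p under 0.05 and no marker among them. The interval was -1.53 to 0.43 for Flt3 probe 1, -2.72 to 0.39 for Flt3 probe 2, -3.65 to 2.27 for Cd48 probe 1, -2.89 to 2.33 for Slamf1 and -1.07 to 1.36 for Cd34 probe 1. For Ly6a the difference was -1.67 (-3.95 to 0.61), and -0.71 without HSC 2.

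The genes whose levels most resembled each marker were found by Pearson's r with its brightest probe over 12 channel values, centred within each dye, among 16547 named features. Flt3 was most like Tespa1 (r = 0.983), a gene of lymphocyte receptor signalling, and Cd53 (r = 0.978). Cd34 was most like the serpin gene Serpinb1a (r = 0.985) and the exchanger gene Slc9a9 (r = 0.943). The 4 genes shared the MPP-high pattern, with differences in KO and WT cells of 3.16 and 3.77 for Tespa1 and of 3.14 and 2.43 for Serpinb1a. Slamf1 was most like Gimap5 (r = 0.948) and Cyp3a59 (r = 0.939), and Tek most like Calml4 (r = 0.944) and Pcbp3 (r = 0.904). Cd48 came closest to Snrpd1 (r = 0.971) and Gdi2 (r = 0.967), and Procr to Usp29 (r = 0.957) and Cyp7b1 (r = 0.947). For Kit the nearest were Palld (r = 0.922) and Snrpn (r = 0.895). For Ly6a they were Add1 (r = 0.978) and Pxn (r = 0.968), and for Thy1 they were H1f1 (r = 0.939) and Tyw1 (r = 0.910). These values share arrays and normalization, are the highest of many, and are given as a description.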

How the data were processed

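Spot intensity, local background and marks (well above background, saturated, non-uniform, outlying) were deposited by the authors as read with Agilent Feature Extraction, version 10.7.3.1 per the file headers and 8.5.1.1 per the submitters' processing notes. The deposited log10 ratio is processed red over processed green, per the file headers, and the series table holds it too. The other deposited marks are 0 or 1, per the file headers.

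Control spots (3671 of 62976) were left out. Intensities were corrected with normexp (offset 50, limma 3.58.1, R 4.3.3). Log2 KO/WT ratios were loess-normalized within arrays, and log2 levels quantile-normalized between arrays within each dye. Probes well above background on all 3 arrays of at least 1 group, with values on all 6 arrays, were tested (44641 of 55681). lmFit and eBayes gave p-values, adjusted by Benjamini-Hochberg over all tested probes (threshold 0.05), and the script was tested on simulated data. Of all probes, 27235 took current symbols from RefSeq. With 3 against 3 samples the precision is limited by the number of arrays; an exact permutation test could not go below 0.1.

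The members and gene lists were chosen with earlier results of these data known. All member probes are named, up to 4 genes per list by smallest p in WT, and the 2 genes most like each marker; some genes this rule would name are not reported here. Same-numbered HSC and MPP samples had correlations of deviations of -0.01 to 0.09 in KO and 0.04 to 0.16 in WT cells. Those of differently numbered samples were -0.10 to 0.07 in KO and -0.15 to 0.04 in WT cells. For each WT replicate and for KO replicates 1 and 2 the same-numbered value was the higher, but not for KO replicate 3. All were small, and the numbers were not taken to pair samples, though a pairing is not excluded. Alternatives were the processed signal, offset 16, median centring, no or a stricter filter, 1 probe or the mean of probes per gene, slide row and replicate number as blocks, a separate-channel model, the series table's ratios and leaving out each array.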

Additional observations from a re-analysis of the deposited data

How the results depend on the processing

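The counts of probes past the threshold between MPPs and HSCs, 157 in KO and 128 in WT cells, depended on the setting. Without the filter on dim probes they were 86 in KO and 67 in WT cells, and with the stricter filter 81 in WT cells. The separate-channel model gave 183 in KO and 360 in WT cells. With slide row as a block they were 0 in KO and 0 in WT cells, and with the replicate block 0 in KO and 0 in WT cells. Under the replicate block the Flt3 probes 1 and 2 had adjusted p-values of 0.122 to 0.223, with the differences unchanged. Whether the replicate numbers pair the samples is not settled by their correlations. Leaving out 1 array at a time gave 36 to 131 in KO and 0 to 105 in WT cells; fewer samples enter these fits. The cause of the other shifts was not tested. The KO/WT comparisons and their difference had 0 calls in every setting run. Flt3 probes 1 and 2 kept their direction in all settings run. The KO call of probe 2 was lost with offset 16 (adjusted p = 0.0568), median centring (0.0574), no filter (0.0759) and the processed signal (0.0852), and the WT call of probe 1 with median centring (0.0549). Cd48 probe 1 passed in WT cells under the separate-channel model (adjusted p = 0.0313). The mean over a gene's probes gave a KO difference of 2.18 for Cd48. Having 3 arrays per group and a dye tied to genotype limits what could be detected.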
